A study of Mus musculus with 6 samples.

Results

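Integrins are cell surface receptors made of 1 alpha and 1 beta chain, and the 10 chains described here are among those that dendritic cells, monocytes and neutrophils use to hold on to matrix and to other cells. They are Itgam, Itgal, Itgax and Itgb2 of the beta 2 family, Itgb1 with its partners Itga4, Itga5 and Itgav, and Itgb7 with its partner Itgae. Members were all probe sets whose platform annotation gave exactly 1 gene symbol from this list. That rule found 28 probe sets of 45101 on the array, for 10 of 18194 named genes. Expression was measured in mouse dendritic cells on Affymetrix arrays, with 1 array per sample and 6 arrays in all. Bone marrow of C57BL/6 mice was grown with GM-CSF, a growth factor, at 10 ng/ml, a standard way to obtain dendritic cells in culture. Cells carrying CD11c and MHC class II were sorted on day 6 into those with Ly6G, a surface protein typical of neutrophils (Ly6G+ DC, 3 samples), and those without it (Ly6G- DC, 3 samples), at the same time and out of shared cultures. Which arrays shared a culture is not in the labels, nor is it stated that the 3 samples per group were grown or taken from mice separately. P-values therefore cover the spread among these 6 samples alone, and that spread may be technical.

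An integrin alpha chain reaches the cell surface only when paired with a beta chain, so the amount of a shared beta chain can limit all of its receptors. Itgb2 (CD18) pairs with Itgal (CD11a) to form LFA-1, with Itgam (CD11b) to form Mac-1, the complement receptor of neutrophils and monocytes, and with Itgax (CD11c) to form the receptor used as a dendritic cell marker in mice. Itgb1 (CD29) pairs with Itga4 and Itga5 in receptors for VCAM-1 and fibronectin, Itgav forms receptors for RGD-containing matrix proteins with Itgb1 and other beta chains, and Itgb7 pairs with Itga4 for homing to the gut and with Itgae (CD103), a marker of one dendritic cell lineage. Inside the cell, talin and kindlin bind beta chain tails and switch the receptors on.

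Values are linear signals of probe sets, groups of short probes for one transcript, and a signal measures change between arrays of the same probe set, not the level of one gene against another. To be tested, a probe set had to exceed the 40th percentile of signal on 3 or more of the 6 arrays, which kept 28254 in all and 21 of the 28 integrin probe sets. These 21 covered all 10 genes. All log2 fold changes are Ly6G+ DC over Ly6G- DC on the log2(signal + 16) scale, with standard errors (SE) from limma, and an adjusted p under 0.05 was the threshold. Arrays also separated across the sort groups. Hybridization controls, transcripts spiked into every sample, had geometric mean signals of 6688 to 12842 on Ly6G+ DC 2, Ly6G- DC 2 and Ly6G- DC 3 (the high side) and of 1529 to 2039 on Ly6G+ DC 1, Ly6G+ DC 3 and Ly6G- DC 1 (the low side). For Actb the signal near the 3' end over that near the 5' end was 3.98 to 6.85 on high-side arrays and 1.17 to 1.49 on low-side arrays. Arrays numbered 1 carried the array name Mouse430_2_2 in their titles, and the others Mouse430_2. The high side holds more Ly6G- arrays than Ly6G+ arrays, so the difference of each gene is also given within each side. Ly6G- DC 1 is the only Ly6G- array of the low side, and Ly6G+ DC 2 the only Ly6G+ array of the high side. Each within-side difference therefore rests on that array alone for its group. The low side also holds arrays of both names.

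No integrin chain passed limma's test between Ly6G+ DC and Ly6G- DC. Of the 21 tested probe sets 0 were called after adjustment, against 0% of all 28254 kept probe sets, where the smallest adjusted p was 0.165. At an unadjusted p under 0.05, 1 of the 21 was called, the probe set of Itgam, against 5.62% of all kept probe sets. Of the 21, 1 was higher on all Ly6G+ arrays than on any Ly6G- array, that of Itgb2, against 4.49% of all kept probe sets, and 0 lower, against 7.24%. These shares are near the background. With 1 probe set per gene, the brightest kept one, 6 of 10 genes had a log2 fold change above 0 and 4 below, with a median of 0.14 beside -0.06 over all kept probe sets.

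Itgam, the alpha chain of Mac-1, had the largest log2 fold change of the 10 genes. Its signal was 2324, 896 and 1790 on Ly6G+ DC arrays 1 to 3, and 1183, 445 and 265 on Ly6G- DC arrays 1 to 3. The groups overlapped by 1 pair of arrays, since Ly6G+ DC 2 lay under Ly6G- DC 1, and the remaining Ly6G+ arrays were above every Ly6G- array. Means were 1670 ± 722 in Ly6G+ cells and 631 ± 487 in Ly6G- cells (SD, n = 3). The log2 fold change was 1.54 ± 0.53 (SE, 95% confidence interval 0.37 to 2.72), or 2.92-fold between means of log values, with an adjusted p = 0.836 from limma. Itgam also followed the hybridization control sides, with 1183 to 2324 on low-side arrays, against 265 to 896 on high-side arrays. Within the low side its log2 difference was 0.78 and within the high side 1.34, so Ly6G+ DC were higher on both. With the side as a block in limma it was 1.06 ± 0.29 with an adjusted p = 0.743. In RNA from sorted bulk cells, fewer cells carrying a transcript and less transcript per cell cannot be told apart.

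Itgam and Itgax lie close together on mouse chromosome 7, with 1 non-coding gene between them in RefSeq, and their log2 fold changes had opposite signs. The promoters of both genes are printed to show how the upstream sequence of these neighbours differs, and a link to their expression was not tested. Each is the 250 bases before the RefSeq start, build GRCm38.p6, + strand, at chr7:128062390-128062639 for Itgam and chr7:128129300-128129549 for Itgax. Capitals mark GAGGAA or its reverse complement TTCCTC, a core recognised by the myeloid transcription factor PU.1.
Itgam: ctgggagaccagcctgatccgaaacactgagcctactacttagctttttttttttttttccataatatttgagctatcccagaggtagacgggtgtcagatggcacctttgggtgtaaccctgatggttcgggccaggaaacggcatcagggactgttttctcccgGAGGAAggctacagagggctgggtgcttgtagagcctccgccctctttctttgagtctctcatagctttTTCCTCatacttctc
Itgax: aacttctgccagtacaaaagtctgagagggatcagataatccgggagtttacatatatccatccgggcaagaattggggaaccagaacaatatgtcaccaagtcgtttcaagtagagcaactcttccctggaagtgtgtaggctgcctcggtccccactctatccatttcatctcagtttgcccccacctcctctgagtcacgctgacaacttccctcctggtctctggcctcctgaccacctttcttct
The Itgam stretch holds 2 such cores, starting 84 bases before the start on the same strand and 15 bases before it on the opposite strand. The Itgax stretch holds 0. The core is not particular to Itgam, since the stretch of Itgav, with a log2 fold change of 0.20, also holds 2. On windows of 250 bases before and 50 after the start, both strands read, 28.3% of 32851 mouse promoters held GAGGAA, as did 5 of the 7 member promoters given, with 3 copies for Itgam. The GC box GGGCGG, held by 35.7% of promoters, occurred 1 time for Itgam and 0 times for Itgax, and TATAAA, held by 13.6%, was in neither. These are letter matches and not evidence of binding.

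Itgal, the alpha chain of LFA-1, showed a smaller difference of the same sign. Its brighter probe set had signals of 1204, 626 and 1143 in Ly6G+ cells, against 892, 496 and 230 in Ly6G- cells. Again only Ly6G+ DC 2 fell inside the Ly6G- range, and Ly6G- DC 3 was the lowest array. The log2 fold change was 0.997 ± 0.47 (SE, 95% confidence interval -0.05 to 2.04), with an adjusted p = 0.836 from limma, and it was 0.51 without Ly6G- DC 3. It was 0.39 within the low side and 0.86 within the high side. A dimmer Itgal probe set read 357, 138 and 98.3 in Ly6G+ cells, against 283, 107 and 32.6 in Ly6G- cells, for a log2 fold change of 0.63 ± 0.66 (SE). Within the low side that probe set was at -0.53 and within the high side at 0.99, so the pair of Itgal probe sets disagreed in sign on the low side.

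Itgax encodes CD11c, on which both populations were gated, so its signal checks the sort and is no finding. It was bright in both, at 7884, 5292 and 2728 in Ly6G+ cells, against 9630, 5910 and 5610 in Ly6G- cells. Ly6G+ DC 3 was the lowest array, Ly6G- DC 1 the highest, and the rest overlapped. The log2 fold change was -0.49 ± 0.43 (SE, 95% confidence interval -1.45 to 0.46), with an adjusted p = 0.861 from limma. Without Ly6G+ DC 3 it was -0.08. Within the low side it was -1.05 and within the high side -0.12.

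Itgb2, the beta chain common to all 3 of these alpha chains, was the only integrin probe set of the 21 whose groups did not overlap. Its signal was 12365, 9183 and 9953 in Ly6G+ cells, against 8930, 6815 and 5830 in Ly6G- cells. The lowest Ly6G+ array, number 2, stood just above the highest Ly6G- array, number 1. Means were 10500 ± 1660 in Ly6G+ cells and 7192 ± 1584 in Ly6G- cells (SD, n = 3), and the log2 fold change was 0.56 ± 0.33 (SE, 95% confidence interval -0.19 to 1.30), with an adjusted p = 0.840 from limma. It was 0.31 within the low side and 0.54 within the high side. The plot of beta 2 family signals by array shows how close these groups came and how the Itgam and Itgal arrays of the high side sat under those of the low side.

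**Figure D1:**
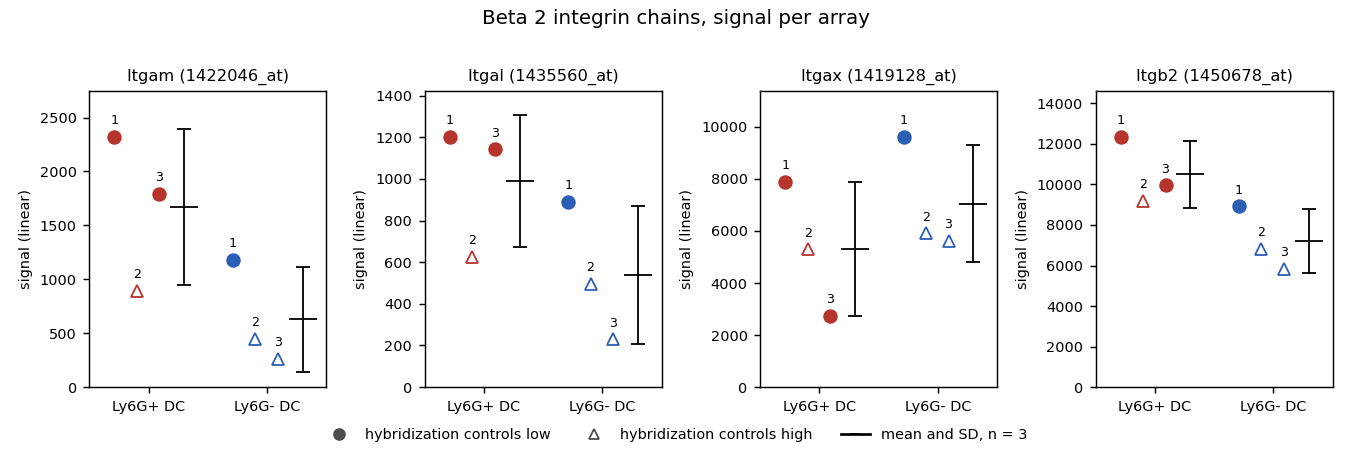
Linear signal of the brightest kept probe set of each beta 2 family gene (y axes, 1 scale per panel) on each array, Ly6G+ DC left and Ly6G- DC right, numbered by sample, with filled circles for arrays of the low side, open triangles for those of the high side and bars for mean and SD (n = 3). Itgb2 is the panel where all Ly6G+ arrays (9183 to 12365) lie above all Ly6G- arrays (5830 to 8930).

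A common factor applied to an array cancels in the ratio of 2 chains, apart from the pseudocount, and 10 pairs of chains were compared, each by an exact two-sided permutation test over the 6 arrays. Such a test of 3 against 3 arrays cannot give a p under 0.1. The sign of a ratio has no meaning as a level, because probe sets differ in brightness, but its change between arrays does. The log2 ratio of Itgam to Itgax was -1.76, -2.54 and -0.60 in Ly6G+ cells, against -3.01, -3.68 and -4.32 in Ly6G- cells. Every Ly6G+ array was above every Ly6G- array. The groups differed by 2.04, from means of -1.63 ± 0.97 in Ly6G+ cells and -3.67 ± 0.66 in Ly6G- cells (SD, n = 3), with an exact permutation p = 0.1 and an adjusted p = 0.333 over the 10 pairs. The difference was 1.83 within the low side and 1.46 within the high side. Leaving out single arrays gave 1.52 (without Ly6G+ DC 3) to 2.49 (without Ly6G+ DC 2). It was 1.25 within the Mouse430_2_2 arrays and 2.43 within the Mouse430_2 arrays.

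The Itgal to Itgax ratio also separated the groups, at -2.69, -3.05 and -1.24 in Ly6G+ cells, against -3.41, -3.53 and -4.51 in Ly6G- cells. The difference was 1.49, with an exact permutation p = 0.1, adjusted p = 0.333, and it was 1.44 within the low side and 0.98 within the high side. Without Ly6G+ DC 3 it was 0.95, and within the Mouse430_2_2 arrays 0.71. The ratio of Itgax to its own beta chain Itgb2 went the other way, at -0.65, -0.79 and -1.86 in Ly6G+ cells, against 0.11, -0.20 and -0.06 in Ly6G- cells. Here all Ly6G+ arrays were lower, by 1.05 on average, or by 0.67 without Ly6G+ DC 3, with an exact permutation p = 0.1 and adjusted p = 0.333. All 3 separated ratios contain the sort marker gene Itgax, on whose protein both populations were gated.

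The remaining 7 ratios overlapped between groups. No share of separated ratios over other pairs of genes was computed, so the 3 separated pairs have no background beside them. Itgam to Itgb2 differed by 0.99 (exact permutation p = 0.2, adjusted p = 0.4) and Itgal to Itgb2 by 0.44 (exact permutation p = 0.5). Of the beta 1 pairs, Itga4 to Itgb1 differed by -1.01 (exact permutation p = 0.2), Itga5 to Itgb1 by -1.07 (exact permutation p = 0.3) and Itgav to Itgb1 by -0.33 (exact permutation p = 0.8). Against Itgb7, Itga4 differed by -0.57 (exact permutation p = 0.8) and Itgae by -0.39 (exact permutation p = 0.6). The plot of chain ratios shows that the 3 separated pairs stand apart on arrays of both sides.

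**Figure D2:**
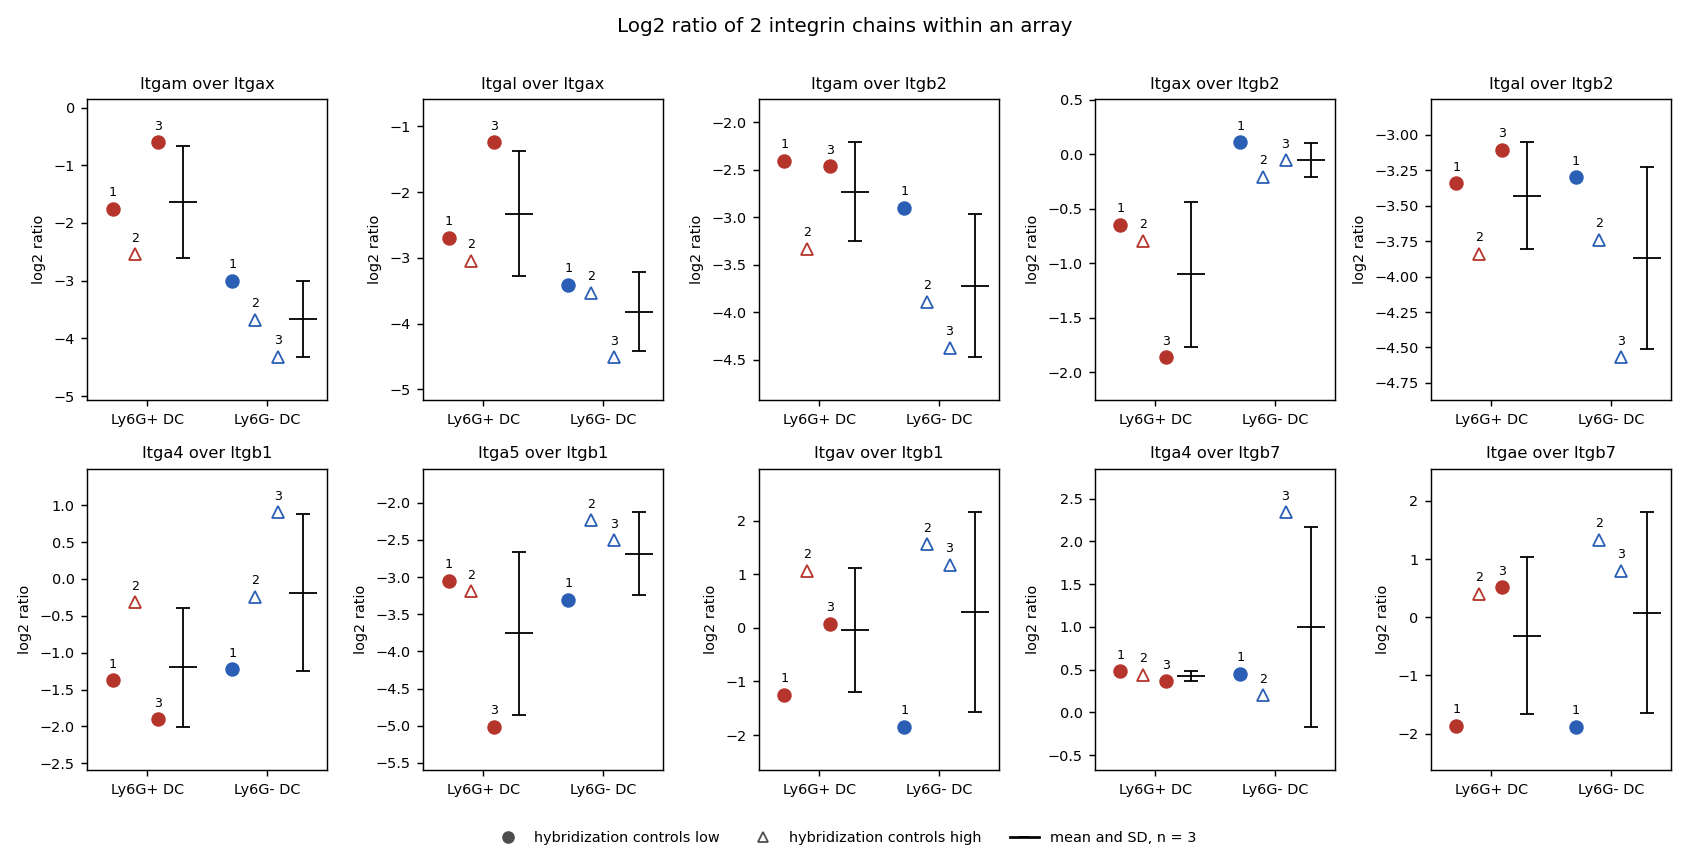
Log2 ratio within each array of the 2 chains named in each panel (y axis, 1 scale per panel), Ly6G+ DC left and Ly6G- DC right, with markers for the side of the hybridization controls as filled circles (low) and open triangles (high) and bars for mean and SD (n = 3). Itgam over Itgax spans -2.54 to -0.60 in Ly6G+ DC and -4.32 to -3.01 in Ly6G- DC.

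Itgb1, the beta chain of the fibronectin and VCAM-1 receptors, separated by the hybridization control sides and overlapped between sort groups. Its brightest probe set read 2230, 881 and 1689 in Ly6G+ cells, against 2676, 585 and 686 in Ly6G- cells. The 3 low-side arrays, at 1689 to 2676, were all above the 3 high-side arrays, at 585 to 881, and the sort groups overlapped. Between sort groups the log2 fold change was 0.53 ± 0.56 (SE, 95% confidence interval -0.71 to 1.78), with an adjusted p = 0.879 from limma, whereas high minus low side gave -1.59. All 3 kept Itgb1 probe sets also separated by array name, this one with 2230 to 2676 on the Mouse430_2_2 arrays and 585 to 1689 on the others. With the side as a block the sort difference was 0.003 ± 0.28, made of -0.46 within the low side and 0.47 within the high side. Leaving out single arrays gave 0.13 (without Ly6G- DC 2) to 1.22 (without Ly6G- DC 1).

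A further Itgb1 probe set had the same pattern, with 2373, 751 and 1370 in Ly6G+ cells, against 2911, 412 and 418 in Ly6G- cells. Its log2 fold change was 0.74 ± 0.70 (SE), and 0.07 with the side as a block. The third kept one was dim, at 204, 76.8 and 110 in Ly6G+ cells, against 296, 24.8 and 181 in Ly6G- cells, with a log2 fold change of 0.01 ± 0.69 (SE). Another 3 Itgb1 probe sets did not pass the filter on dim signals. Of all 21 integrin probe sets, 5 were lower on the high side with no overlap between sides, against 11.5% of all kept probe sets. These were the probe set of Itgam, the brighter one of Itgal, the 2 brightest of Itgb1 and a dim one of Itga5. Only 1 was higher there, of Itga4, against 17.3%.

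Itga4, the alpha chain shared by the VCAM-1 receptor and the gut-homing receptor, had lower mean signal in Ly6G+ DC. Its brightest probe set read 849, 704 and 439 in Ly6G+ cells, against 1136, 493 and 1299 in Ly6G- cells. Ly6G- DC 2 fell below 2 of the Ly6G+ arrays, so the groups overlapped. Its log2 fold change was -0.48 ± 0.41 (SE, 95% confidence interval -1.40 to 0.44), with an adjusted p = 0.859 from limma, and it was -0.88 within the low side and -0.19 within the high side. It ranged over leaving out single arrays from -0.91 without Ly6G- DC 2 to -0.22 without Ly6G+ DC 3 or without Ly6G- DC 3.

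The other 2 kept Itga4 probe sets also had negative log2 fold changes. One read 125, 236 and 131 in Ly6G+ cells, against 135, 256 and 298 in Ly6G- cells, for a log2 fold change of -0.44 ± 0.40 (SE). This was the 1 integrin probe set higher on the high side, with 236 to 298 there and 125 to 135 on the low side. The dimmest read 18.4, 60.2 and 54.5 in Ly6G+ cells, against 163, 59.6 and 39.4 in Ly6G- cells, so it was at least 1.31-fold lower in Ly6G+ DC. That bound sets each dim Ly6G+ array at no less than its 40th percentile, and it is lost without Ly6G- DC 1, the 1 array well above the rest (ratio 0.930; limma, adjusted p = 0.861).

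Itga5, the alpha chain of the classic fibronectin receptor, was dim. Its brightest probe set read 254, 82.2 and 36.7 in Ly6G+ cells, against 256, 111 and 108 in Ly6G- cells. The arrays numbered 1, both with the array name Mouse430_2_2, were alike at 254 and 256, and the other 4 lay at 36.7 to 111. This gave a log2 fold change of -0.54 ± 0.60 (SE, 95% confidence interval -1.86 to 0.79), with an adjusted p = 0.884 from limma, and it was 0.005 without Ly6G+ DC 3. It was -1.19 within the low side and -0.35 within the high side. Of its other 3 probe sets, 1 gave -0.06 ± 0.44 (SE), and no fold is given for the remaining 2, whose signals ranged from 3.25 to 129 and whose dimmer group averaged under the 40th percentiles of its arrays.

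Itgav, the alpha chain of RGD-binding receptors, had mean signals of 1518 ± 516 in Ly6G+ cells and 1348 ± 542 in Ly6G- cells (SD, n = 3). It read 924, 1858 and 1772 in Ly6G+ cells, against 731, 1748 and 1565 in Ly6G- cells. The arrays named Mouse430_2_2 had 731 to 924 and the others 1565 to 1858, while the sort groups interleaved. As a log2 fold change this was 0.20 ± 0.41 (SE, 95% confidence interval -0.71 to 1.11), with an adjusted p = 0.937 from limma, and it was 0.33 within Mouse430_2_2 and 0.13 within Mouse430_2. Within the low side it was 0.80 and within the high side 0.17. Of its other 2 kept probe sets, both dim, 1 gave -0.16 ± 0.59 (SE) and 1 was at least 1.06-fold lower in Ly6G+ DC (limma, adjusted p = 0.868). That bound is lost without Ly6G- DC 1 (ratio 0.798), and the 3 probe sets disagreed on the sign.

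Itgb7, the beta chain of gut-homing integrins, had means of 485 ± 135 in Ly6G+ cells and 499 ± 298 in Ly6G- cells (SD, n = 3). Its signal was 604, 513 and 338 in Ly6G+ cells, against 826, 427 and 243 in Ly6G- cells. The Ly6G- arrays spanned a wider range that enclosed all Ly6G+ arrays. On the log2 scale the fold change was 0.09 ± 0.44 (SE, 95% confidence interval -0.88 to 1.06), with an adjusted p = 0.976 from limma, and it was -0.84 within the low side and 0.64 within the high side.

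Itgae, the alpha chain CD103, separated by array name and overlapped by sort. The plot of beta 1 and beta 7 family signals by array shows this, and the split of Itgb1 by side. Its brightest probe set read 154, 687 and 492 in Ly6G+ cells, against 212, 1102 and 435 in Ly6G- cells. The arrays named Mouse430_2_2 were lowest in each group, at 154 to 212, against 435 to 1102 on the others. Between groups the log2 fold change was -0.31 ± 0.63 (SE, 95% confidence interval -1.71 to 1.10), with an adjusted p = 0.937 from limma, and it was 0.37 within the low side and -0.01 within the high side. Its sign turned to 0.18 with the side as a block and to 0.012 when arrays were scaled to a common median. A dimmer Itgae probe set read 66.9, 180 and 113 in Ly6G+ cells, against 133, 165 and 69.8 in Ly6G- cells, for a log2 fold change of -0.05 ± 0.46 (SE).

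**Figure D3:**
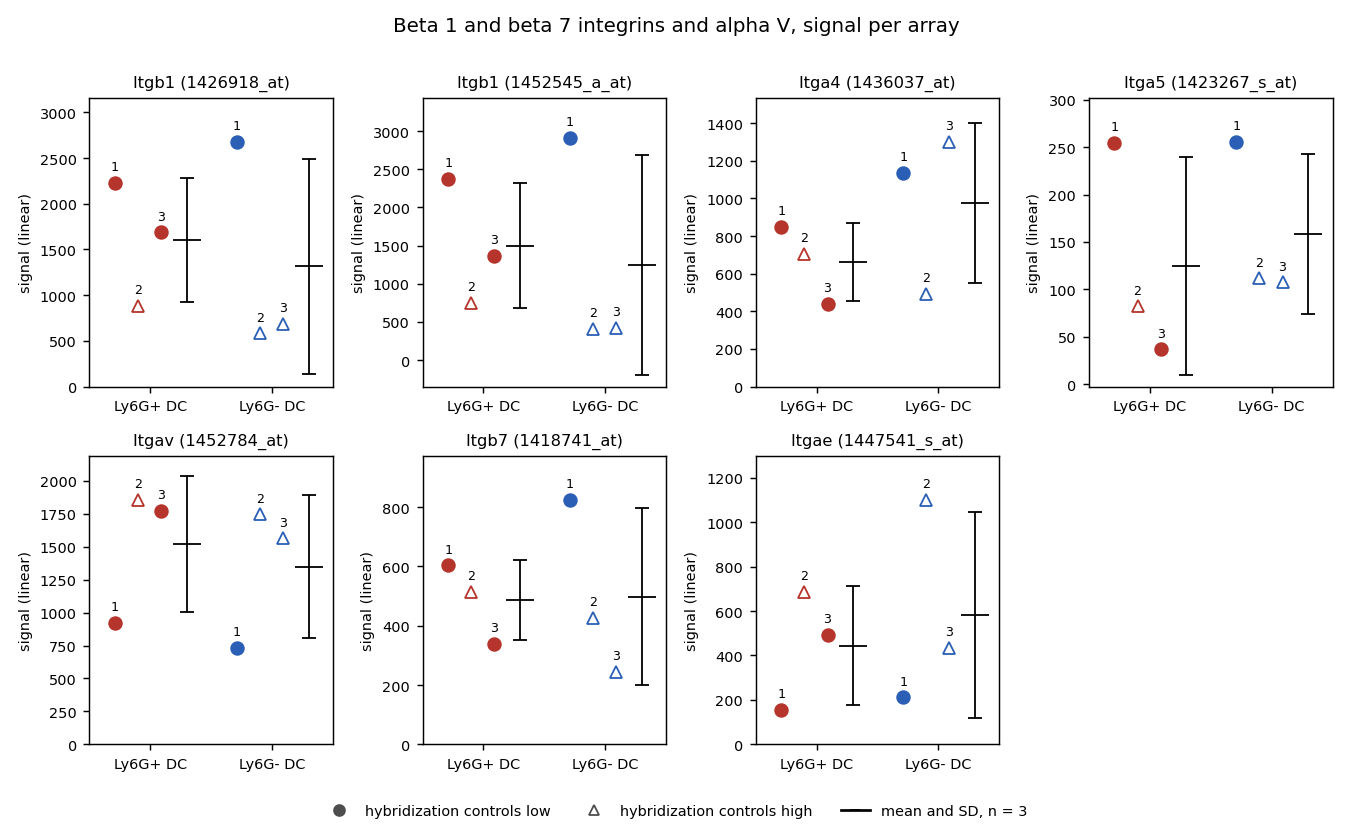
Linear signal of Itgb1 (its 2 brightest probe sets), Itga4, Itga5, Itgav, Itgb7 and Itgae (y axes, 1 scale per panel) on each array, Ly6G+ DC left and Ly6G- DC right, numbered by sample, with filled circles for the low and open triangles for the high side and bars for mean and SD (n = 3). Groups overlap in every panel, and in both Itgb1 panels the low-side arrays lie above the high-side arrays.

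Between array names, 2 of the 21 integrin probe sets were lower on the Mouse430_2_2 arrays with no overlap, the brightest ones of Itgav and Itgae, against 14.7% of all kept probe sets. Another 9 were higher there, against 14.3%, namely those of Itgax and Itgb7, all 3 of Itgb1, 2 of Itga5 (its brightest among them), the dimmer one of Itgal and a dim one of Itgav. Both names hold arrays of both sort groups, and with the name as a block the log2 fold changes keep their values while the SE of Itgam becomes 0.32 and its adjusted p = 0.180 in limma. The 7 probe sets under the filter belonged to Itga4 (2), Itgav (2) and Itgb1 (3), and had signals of 1.74 to 125, too dim for a fold. The plot of log2 fold changes sets the 21 tested probe sets beside each other, each from the group alone and with the side as a block. Above 0 in both fits are the probe sets of Itgam and Itgb2, both of Itgal, the 2 brightest of Itgb1 and the brightest of Itgav. On opposite sides of 0 in the 2 fits lie both of Itgae, that of Itgb7, a dim one of Itga5 and the dimmest kept one of Itgb1.

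**Figure D4:**
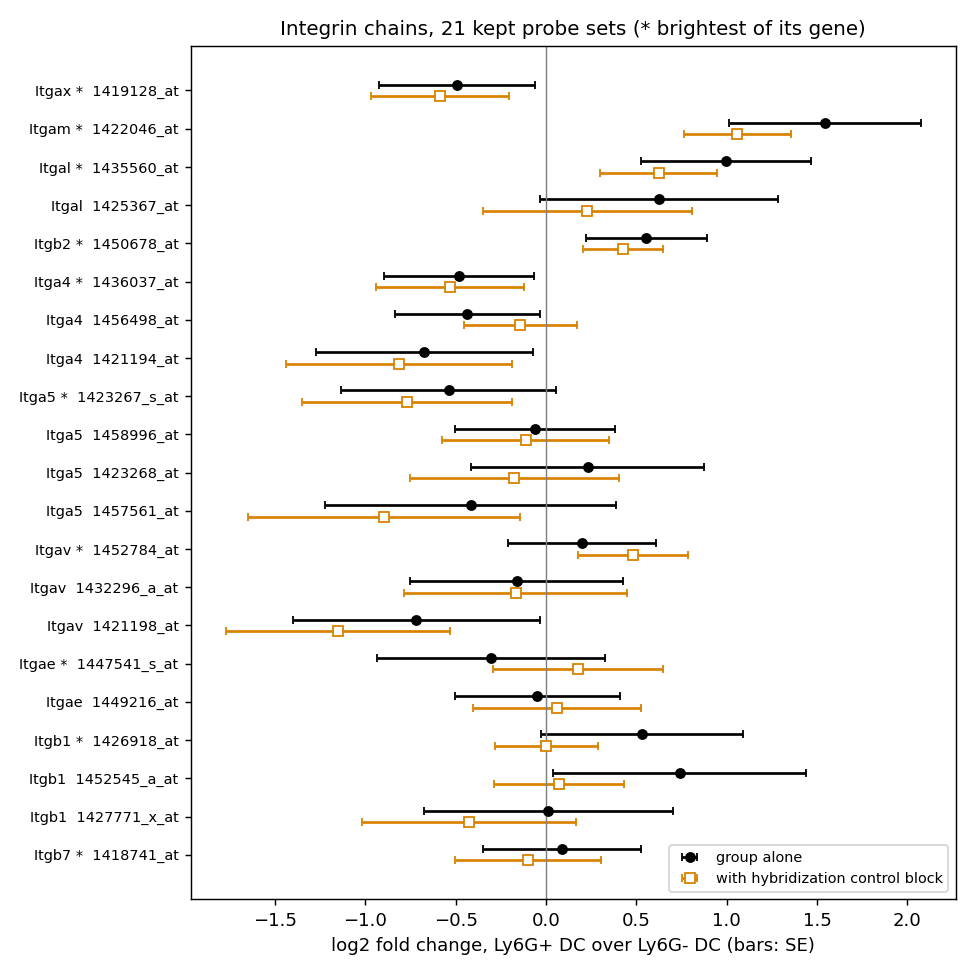
Log2 fold change of each of the 21 tested probe sets (rows, an asterisk marks the brightest of its gene), Ly6G+ DC over Ly6G- DC (x axis), from limma with the group alone (filled circles) and with the side of the hybridization controls as a block (open squares), with bars for the SE. Itgam lies at 1.54 with the group alone and at 1.06 with the block, and the brightest Itgb1 probe set at 0.53 and 0.003.

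Chains outside the 10 were mostly dim. Of 16 listed, 9 had a kept probe set, 2 with a log2 fold change above 0 and 7 below, with a median of -0.33 beside -0.06 over all kept probe sets. None passed limma's test, and 0 had an unadjusted p under 0.05. Itgb3, the platelet fibrinogen receptor's beta chain and also a partner of Itgav, read 80.8, 85.1 and 52.3 in Ly6G+ cells, against 54.4, 4.68 and 7.46 in Ly6G- cells, and was at least 1.17-fold higher in Ly6G+ DC (limma, adjusted p = 0.836). Itga8 read 50.7, 41.1 and 32.7 in Ly6G+ cells, against 95.1, 64.4 and 91.7 in Ly6G- cells, without overlap and at least 1.56-fold lower (limma, adjusted p = 0.838). It was the 1 of the 9 lower without overlap, against 7.24% of all kept probe sets, and 0 were higher, against 4.49%. Itga6, a laminin receptor chain, was at 600.2 to 906 in Ly6G+ DC and 897 to 1225 in Ly6G- DC, with a log2 fold change of -0.50 ± 0.30 (SE). Itga3, another laminin receptor chain, gave -0.91 ± 0.44 and Itgb5, a partner of Itgav, -0.33 ± 0.42 (SE).

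Ligands of these integrins had mixed signs, and none passed the adjusted test. Of 20 listed, 12 were kept, 6 above and 6 below 0, with a median of 0.02. At an unadjusted p under 0.05, 1 of the 12 was called, Icam2, a ligand of LFA-1, against 5.62% of all kept probe sets. Icam2 was also the 1 higher without overlap, against 4.49% of all kept probe sets, and 0 were lower, against 7.24%. These counts are near the background. Icam2 read 82.8, 127 and 123 in Ly6G+ cells, against 38.9, 22.0 and 52.9 in Ly6G- cells, at least 1.68-fold higher in Ly6G+ DC (limma, adjusted p = 0.836). Icam1, the main ligand of LFA-1 and Mac-1, had 3148, 3784 and 2745 in Ly6G+ cells, against 3442, 4896 and 6636 in Ly6G- cells. Only Ly6G- DC 1 lay inside the Ly6G+ range, and the log2 fold change was -0.59 ± 0.34 (SE). Fn1, fibronectin, the ligand of the Itga4 and Itga5 receptors, gave 0.75 ± 0.44 (SE), with 7947 to 12214 in Ly6G+ DC and 3020 to 9184 in Ly6G- DC.

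Genes that switch integrins on, and their adaptors, had mixed signs. Of 36 genes listed, 30 were kept, 16 above and 14 below 0, with a median of 0.09, and 0 passed after adjustment. At an unadjusted p under 0.05, 1 was higher in Ly6G+ DC, the adaptor Fyb (ADAP), and 2 were lower, Rapgef1 and Cyth1, against 5.62% of all kept probe sets in either direction. Rapgef1, an exchange factor that activates the integrin regulator Rap1, read 428, 482 and 296 in Ly6G+ cells, against 734, 869 and 702 in Ly6G- cells. All Ly6G+ arrays were below all Ly6G- arrays, with a log2 fold change of -0.93 ± 0.30 (SE, limma, adjusted p = 0.836) that was -1.01 within the low side and -0.68 within the high side. Cyth1 (cytohesin-1), which binds the Itgb2 tail, gave -0.76 ± 0.31 and Fyb 0.74 ± 0.30 (SE), both without overlap.

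Rap1a and Tln2, named after their values were seen, also separated the groups, both higher in Ly6G+ DC. Rap1a, the GTPase upstream of talin, read 2943, 3004 and 4687 in Ly6G+ cells, against 2847, 2557 and 2203 in Ly6G- cells. Tln2, a talin, was dim and at least 1.06-fold higher (limma, adjusted p = 0.836), a bound that is lost without Ly6G+ DC 2 (ratio 0.867). The brightest genes of the list were Rap1b, at 0.33 ± 0.33, and Fermt3 (kindlin-3), at -0.14 ± 0.52 (SE), both overlapping. Of the 30, 3 were thus higher without overlap, against 4.49% of all kept probe sets, and 2 lower, against 7.24%.

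Selectins and their ligands, which slow a cell before integrins hold it, had 5 of 8 kept, 3 above and 2 below 0, with a median of 0.50. None had an unadjusted p under 0.05, and 1 was higher and 1 lower without overlap, against the same 4.49% and 7.24%. Cd44, the hyaluronan receptor, read 5196, 4543 and 6459 in Ly6G+ cells, against 3961, 3615 and 3749 in Ly6G- cells, without overlap (log2 fold change 0.50 ± 0.30, SE). Selplg, the P-selectin ligand PSGL-1, read 6395, 5908 and 3711 in Ly6G+ cells, against 7075, 7334 and 6984 in Ly6G- cells, also without overlap and lower (-0.46 ± 0.33, SE). Cd24a and Cd34 overlapped between groups, with Cd24a at -0.06 ± 0.46 (SE). No fold is given for Cd34, whose Ly6G- DC signals of 17.0, 171 and 15.6 averaged under the 40th percentiles of their arrays on the log2 scale.

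Markers of some cell types separated by sort and those of others did not. They are given here because Mac-1, LFA-1 and Itgb2 are carried by several myeloid cell types. Of 14 neutrophil markers 13 had a kept probe set. All 13 were higher in Ly6G+ DC without overlap between groups, against 4.49% of all kept probe sets. Their summed signal was 84654 to 109203 in Ly6G+ DC and 11122 to 27216 in Ly6G- DC, and 0 of the 13 passed limma's adjusted test of the group alone or with the side as a block. With the array name as a block 9 of the 13 passed, S100a8 and S100a9 among them (limma, adjusted p = 0.0188 and 0.0296), all higher in Ly6G+ DC, while 0 integrin probe sets did. The brightest, S100a9 and S100a8, had log2 fold changes of 4.07 ± 0.65 and 3.53 ± 0.52 (SE). Of 6 monocyte markers 5 were kept, all above 0 with a median of 1.23, and 0 passed limma's adjusted test of the group alone. Higher without overlap were 3 of them, against 4.49% of all kept probe sets. These were Plac8, Vcan and the brightest of those, Ccr2, at 1.06 ± 0.43 (SE). The monocyte marker sums were 13152 to 17642 in Ly6G+ DC and 4095 to 12610 in Ly6G- DC. Fn1 is counted in this list and among the ligands, and Itgb3 among the platelet markers and the other chains. The part of these markers in the Itgam, Itgal and Itgb2 values was not tested.

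The dendritic cell markers, which include the MHC class II genes of the gate, were led in brightness by H2-Aa at -1.30 ± 0.74 and Cd74 at -1.02 ± 0.54 (SE). H2-Aa followed the sides, with 14475 to 22344 on low-side arrays and 62040 to 120546 on high-side arrays. With the side as a block H2-Aa was at -0.61 ± 0.25 and Cd74 at -0.63 ± 0.28 (SE). The median of the list was -0.96 with the group alone and -0.68 with that block. All 10 dendritic cell markers had log2 fold changes below 0, 8 of them lower without overlap, against 7.24% of all kept probe sets. Their sums, which include H2-Aa, were 71612 to 141550 in Ly6G+ DC and 111818 to 262105 in Ly6G- DC. Macrophage markers had 4 of 8 above 0 and 4 below, with a median of 0.02, and Csf1r at -0.08 ± 0.45 and C1qb at -0.36 ± 0.56 (SE). Of eosinophil, basophil and mast cell markers 7 of 8 were kept and 2 were higher without overlap, against 4.49% of all kept probe sets. The list was led in brightness by Prg2 at 2.61 ± 0.53, which passed with the array name block (limma, adjusted p = 0.0461), and Gata2 at -0.25 ± 0.31 (SE). T and NK cell markers had 3 of 8 kept, with Cd3d, Cd3e and Cd3g under the filter. All 3 were below 0, with 2 lower without overlap, against 7.24% of all kept probe sets. Their sums were 467 to 1105 in Ly6G+ DC and 1387 to 1842 in Ly6G- DC. Their brightest, Zap70 and Klrd1, had log2 fold changes of -1.42 ± 0.51 and -0.86 ± 0.33 (SE). B cell markers had 5 of 6 kept, with a median of -0.18, Ms4a1 at -0.75 ± 0.38 and Cd22 at -0.01 ± 0.40 (SE). Platelet markers had 6 of 6 kept, with a median of 0.12, Pf4 at 0.75 ± 0.41 and Ppbp at 0.32 ± 0.31 (SE). The part of these markers in the integrin values was not tested either.

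With the side of the hybridization controls as a block, 0 integrin probe sets were called after adjustment, and 1 of 21, Itgam, had an unadjusted p under 0.05, against 6.63% of all kept probe sets. The median of all kept probe sets was -0.06 with the authors' scaling and 0.23 when arrays were scaled to a common median. Of all probe sets with an unadjusted p under 0.05, 49% were higher in Ly6G+ DC with the authors' scaling, 88.1% with a common median and 62.7% after quantile normalization. Of the 10 integrin genes, 6, 7 and 6 were above 0 under those 3 scalings, and the 3 separated ratios kept their sign under each, with 2.03 to 2.06 for Itgam over Itgax. For the common median this had to be so, since a common factor cancels in a ratio apart from the pseudocount.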

How the data were processed

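RNA of 3 Ly6G+ and 3 Ly6G- dendritic cell samples was measured on 1 array each. The authors deposited 1 linear intensity (MAS5 signal) for each probe set, and each array's mean after trimming 2% at both ends is 249.9. Affymetrix Expression Console 2.0, GCOS and MAS5 are named in the submitters' processing notes. In the sources used here their settings are not given. The MAS5 method leaves dim probe sets noisy. Scaling to a trimmed mean leaves out the brightest 2%, but lets the bright probe sets that remain shift all others.

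Probe sets were named through the platform annotation, in which 34958 had 1 gene symbol, 932 several and 9211 none. All 28 integrin probe sets matched RefSeq by Entrez identifier with an unchanged symbol. Ly6g was not named in it, so the sort marker gene was not checked. Promoter sequences are RefSeq's (GRCm38.p6).

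Signals were analysed as log2(signal + 16), which understates folds of dim genes, with the 40th percentile filter on 3 of 6 arrays. The test was limma 3.58.1 (R 4.3.3, lmFit, eBayes with an intensity trend, group alone) and Benjamini-Hochberg adjustment over 28254 probe sets, tested on simulated data first. Where the dimmer group's mean lay under its arrays' 40th percentiles, the fold is a bound. Hybridization control sides were split at the widest gap. Errors are SE from limma or SD over 3 arrays, and precision is limited by the small number of arrays. The members, gene lists and side split were chosen with earlier results of these data known. All members were named, plus, of each adhesion list, the 3 genes with the lowest unadjusted p and the 2 brightest, and the 2 brightest of each marker list. Alternatives were other scalings, pseudocounts of 1 and 64, other filters and variance models, 1 value per gene, blocks by number, array name or side, and leaving out each array.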

Additional observations from a re-analysis of the deposited data

How the results depend on the processing

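Of the integrin probe sets, 0 passed limma's test under every alternative run, as in the fit reported. Over all kept probe sets the count was 0, 2 with the mean of a gene's kept probe sets, 21 with the array name block, and 0 to 24 on leaving out single arrays (24 without Ly6G- DC 1). With the replicate number as a block it was 19, and the integrin count was 0, while 9 of 13 neutrophil markers passed. The deviations of same-numbered arrays had correlations of 0.52, 0.263 and -0.043, and Ly6G+ DC 2 went more with Ly6G- DC 3 (0.323). Number 3 joins a low-side array to a high-side array, so these correlations cannot decide whether the numbers pair the samples. The log2 fold changes of Itgam (0.78 to 2.12), Itgal (0.39 to 1.45), Itgb2 (0.31 to 0.89), Itgax (-1.05 to -0.08) and Itga4 (-0.91 to -0.16) kept their sign under all 24 alternatives. Many of these cannot change the sign. The filters, variance models, brightest probe set per gene and blocks by number or array name leave these log2 fold changes as they were. Itgae was at 0.012 with a common median, 0.18 with the side block and -0.85 to 0.30 on leaving out single arrays. Itgav was at -0.23 with the mean of its kept probe sets and -0.19 to 0.52 on leaving out single arrays. Itgb7 was at -0.10 with the side block and -0.32 to 0.53 on leaving out single arrays, and Itga5 at -1.18 to 0.0048 (without Ly6G+ DC 3). With the filter at the 60th percentile Itga5 gave no value. The cause of these sign changes was not tested. MAS5 signals near background limit Itga5 and the dimmer probe sets of Itga4, Itgav and Itgb1.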
